A study of Homo sapiens with 10 samples.

Results

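The miR-320 family was represented by 2 of the 745 miRNA assays of the series, those whose names begin with hsa-miR-320. hsa-miR-320a (miR-320a below) was measured on panel 1 and hsa-miR-320b (miR-320b) on panel 2, and no further letter of the family was on either panel. The family was chosen by its high levels with the p21 probe in both cell lines, so the p21 values below describe that choice. The material was HepG2, a human liver tumour line, purified with a p21 probe, a STAT3 probe or a control probe, and PC-3, a human prostate cancer line, purified with a p21 probe or a control probe. In all 5 purifications the probe was transfected into living cells for 24 hours, the RNA bound to it was captured on streptavidin beads, and miRNAs were read by SYBR Green RT-PCR on 2 panels, which gave 10 samples. Each condition was purified 1 time, so differences between conditions could not be checked against replicates and have no p-values. Neither the probe sequences nor the recovery of the p21 and STAT3 messages were analysed here.

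MicroRNAs are short RNAs that Argonaute proteins hold and that pair with messages mainly through the seed, bases 2 to 8 from the 5′ end. Most are cut from long primary transcripts by Drosha and then by Dicer. miR-320a is a known exception: its hairpin is made as a short capped transcript that goes to Dicer without Drosha. Most family members share a seed and differ at the 3′ end. The p21 probe was directed at the message of CDKN1A (chr6:36676463-36687332, GRCh38.p14), a cyclin-dependent kinase inhibitor that halts the cell cycle, and the STAT3 probe at the message of STAT3 (chr17:42313324-42388442), a cytokine-activated transcription factor.

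The sequence of miR-320b is shown with 3 close relatives to show how similar the family members are; the sequence of miR-320a was not used here, and how far the miR-320a and miR-320b assays read each other's miRNA was not tested. Sequences and coordinates are those of RefSeq on GRCh38.p14, read 5′ to 3′, with bases 2 to 8 in capitals.
miR-320b: aAAAGCUGgguugagagggcaa
miR-320c: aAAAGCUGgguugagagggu
miR-320d: aAAAGCUGgguugagagga
miR-320e: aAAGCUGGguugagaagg
The first 19 bases of miR-320c and the first 18 bases of miR-320d were the same as those of miR-320b. miR-320e is annotated from a later first base and shared a run of 15 bases with it. Only miR-320b of these 4 was on the panels, and how well its assay keeps the others out is not known here. Among the RefSeq mature sequences used here, which did not include miR-320a, 4 names carried the miR-320b seed: miR-320b, miR-320c, miR-320d and miR-4429. Of the 742 miRNA names on the panels, 239 were found unchanged among those RefSeq names, again without miR-320a, and 1 of them, miR-320b itself, had that seed. The G+C content of miR-320b was 50%, equal to the median of those 239.

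miR-320b comes from 2 hairpins, shown because the assay reads their identical product together. Here the capitals mark the mature miRNA.
MIR320B1: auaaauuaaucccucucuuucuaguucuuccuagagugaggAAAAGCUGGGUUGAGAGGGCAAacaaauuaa
MIR320B2: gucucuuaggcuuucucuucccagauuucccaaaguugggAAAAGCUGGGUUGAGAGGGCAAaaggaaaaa
MIR320B1 lies at chr1:116671746-116671817 on the plus strand, in no other annotated gene, and the nearest protein-coding gene, IGSF3, ends 3991 bp away. MIR320B2 lies at chr1:224257040-224257110 on the minus strand, inside the bounds of NVL, which encodes a nuclear ATPase. In both hairpins the mature miRNA is on the 3′ arm, at bases 42 to 63 of MIR320B1 and 41 to 62 of MIR320B2.

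Both members were most abundant with the p21 probe in HepG2. The measure was the Cq, the PCR cycle at which the signal crosses threshold, which is lower for more RNA, and a Cq of at most 35 counted as detected. In HepG2 the Cq of miR-320a was 26.04 for p21, 29.44 for STAT3 and 31.60 for control, and in PC-3 it was 30.34 for p21 and undetermined for control. In HepG2 the Cq of miR-320b was 26.07 for p21, 29.67 for STAT3 and 31.57 for control, and in PC-3 it was 32.35 for p21 and undetermined for control. Each was thus detected in 4 of 5 purifications, with the PC-3 control as the exception.

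The purification with the highest level is the one by which the family was chosen, so its lead is a description. The only error available was technical. The 6 reference assays run on both panels (the small RNAs U6, SNORD38B and SNORD49A and the miRNAs miR-423-5p, miR-191 and miR-103) gave an SD of 0.69 cycles for a difference between purifications (17 values), which does not cover transfection or purification. The 17 values are not independent, because the comparisons share purifications, and they include offsets between panels. The SD is therefore only a rough scale. The HepG2 p21 purification led the next one, HepG2 STAT3, by 3.40 cycles for miR-320a and by 3.61 cycles for miR-320b. For miR-320a the next gaps, from HepG2 STAT3 to PC-3 p21 (0.91 cycles) and from PC-3 p21 to HepG2 control (1.25 cycles), were under 2 SDs (1.38 cycles), so these neighbours were not told apart. For miR-320b the gap between HepG2 STAT3 and HepG2 control was 1.89 cycles, above 2 SDs, and that between HepG2 control and PC-3 p21 was 0.78 cycles, below them.

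**Figure D1:**
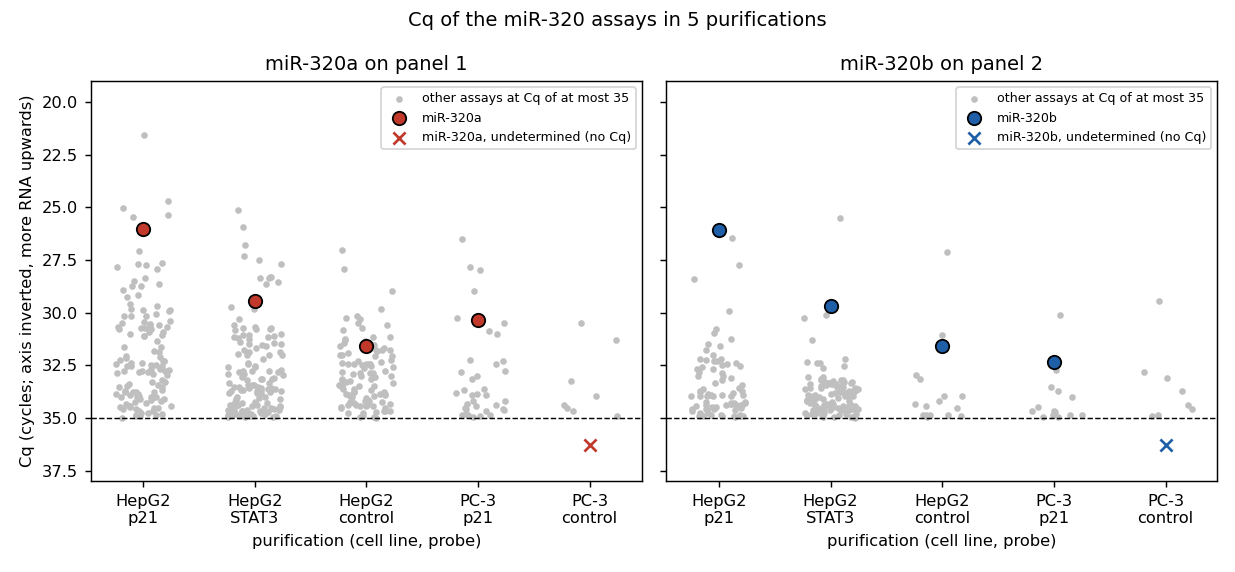
Cq (inverted axis, more RNA upwards) of miR-320a on panel 1 and miR-320b on panel 2 in the 5 purifications, with 1 well per point; grey points are the other miRNA assays at a Cq of at most 35 (dashed line), spread sideways for visibility, and a cross marks no Cq. Both members stood highest with the p21 probe in HepG2, at 26.04 and 26.07, and were undetermined with the control probe in PC-3.

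Within each panel the members were among the earliest assays to cross threshold, although assays differ in efficiency and their Cq values do not rank molecules exactly. miR-320b had the lowest Cq of the 83 assays detected on panel 2 with the p21 probe in HepG2, ahead of miR-1974 at 26.46. It was at place 2 of 117 with the STAT3 probe, place 3 of 17 with the control probe and place 2 of 15 with the p21 probe in PC-3. In each of these 3 purifications miR-1974, a name since withdrawn as a fragment of another RNA, was first. miR-320a was at place 6 of 128 detected on panel 1 with the p21 probe in HepG2, place 14 of 139 with the STAT3 probe and place 20 of 108 with the control probe, and at place 6 of 38 with the p21 probe in PC-3. On that panel the earliest assay with the p21 probe in HepG2 was miR-92a, at 21.54. The distance to the panel's median detected assay was 6.44 cycles for miR-320a and 7.85 for miR-320b with the p21 probe in HepG2, against 1.55 and 2.76 with the control probe.

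In HepG2 with the p21 probe, both members exceeded the control purification by more than 5 cycles. miR-320a was 5.56 cycles earlier with the p21 probe than with the control probe and miR-320b 5.50 cycles earlier, where 1 cycle is taken as 1 log2 unit. Assays in general also came earlier with the p21 probe, so each panel was centred on the median shift of its miRNA assays detected with both probes, which was 1.30 on panel 1 (87 assays) and 1.06 on panel 2 (16 assays). After centring miR-320a was 4.26 log2 units higher (19.2-fold) and miR-320b 4.44 higher (21.7-fold). They ranked at places 7 and 4 of 103 assays. At a size of 2-fold, 2 of 2 members were higher, where 39 of 103 assays (37.9%) were; nothing is read from this count, since the same contrast chose the family.

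The assays next to them in that ranking were as far from the centre. miR-193b (5.41) stood just above miR-320b and miR-423-5p (4.41) just below it, and miR-103 on panel 1 (4.29) and let-7b (3.97) enclosed miR-320a; the panel 2 assay of miR-103 stood at 2.26, at place 17. The gaps between miR-320a, miR-320b and the panel 1 assays of miR-423-5p and miR-103 were well within the technical SD. For scale, miR-92a, the highest assay, was at 7.74. Reference assays moved in the same direction by unequal amounts. Without centring, miR-423-5p and miR-103 on panel 1 shifted by 5.71 and 5.59, slightly more than either member, and miR-103 on panel 2 by 3.32. The small RNAs shifted by less: U6, a spliceosomal RNA, shifted by 1.86 on panel 1 and 1.82 on panel 2, and SNORD38B and SNORD49A, both small nucleolar RNAs, by 2.82 and 2.63 on panel 1 and by 3.18 and 2.53 on panel 2. Centred on these 3 small RNAs, miR-320a was 3.13 and miR-320b 2.99 log2 units higher with the p21 probe. In the authors' deposited table miR-320a stands at 40.1-fold and miR-320b at 35.4-fold for this comparison, places 7 and 8 of 729 entries. Its header names only a housekeeping gene as the normaliser, but on the log2 scale these folds are 5.33 and 5.14, the values obtained here by centring on UniSp6, a synthetic spike-in.

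With the p21 probe in PC-3 only a lower bound could be given, because neither member gave a Cq with the control probe. Both were among the 43 of 745 assays (5.77%) detected with the p21 probe and not with the control probe, which again belongs to the reason for choosing them. With the control placed at Cq 35, miR-320a was at least 4.66 log2 units higher without centring and miR-320b at least 2.65. The panel shifts rested on 6 assays on panel 1 (1.89) and 4 on panel 2 (-0.17). After centring the bounds were 2.76 for miR-320a (at least 6.78-fold) and 2.82 for miR-320b (at least 7.05-fold), places 4 and 3 of the 43 after miR-92a (5.30) and let-7b (4.12).

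The place of miR-320b in PC-3 depended on the centring. Ranked on the uncentred bounds it was at place 9 of the 43, while miR-320a was at place 3. U6, SNORD38B and SNORD49A were higher with the p21 probe by 2.01, 1.95 and 2.44 on panel 1 and by 0.98, 1.11 and 1.41 on panel 2, so the uncentred bound of each member lay above the shift of these RNAs on its own panel. In the authors' deposited table miR-320a stands at 17.9-fold and miR-320b at 9.49-fold for PC-3, places 3 and 8 of 729.

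The STAT3 probe, which was not used to choose the family, brought down less of both members than the p21 probe did. miR-320a was at 29.44 with the STAT3 probe against 31.60 with the control probe, and miR-320b at 29.67 against 31.57. The uncentred differences were 2.16 and 1.89 log2 units. The panel shifts were 0.49 (87 assays) and 1.13 (13 assays), which left miR-320a 1.67 higher (3.18-fold, place 15 of 100) and miR-320b 0.76 higher (1.69-fold, place 33). At a size of 2-fold, 1 of 2 members was higher, where 29 of 100 assays (29%) were.

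This STAT3 difference was of the size seen for the small reference RNAs. U6 (1.44), SNORD38B (1.90) and SNORD49A (1.91) on panel 1, and U6 (2.12), SNORD38B (2.67) and SNORD49A (2.14) on panel 2, were also higher with the STAT3 probe than with the control probe. Centred on them, miR-320a was 0.41 higher and miR-320b was at -0.42, both inside the technical SD. The neighbours in the ranking were miR-103 on panel 1 (1.83, with -0.33 on panel 2) and miR-99b (1.56) around miR-320a, and miR-671-5p (0.78) and miR-30b (0.73) around miR-320b. The authors' deposited table lists 6.26-fold for miR-320a and 2.10-fold for miR-320b. The p21 and STAT3 comparisons in HepG2 share the control purification, so an error in that control enters both.

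**Figure D2:**
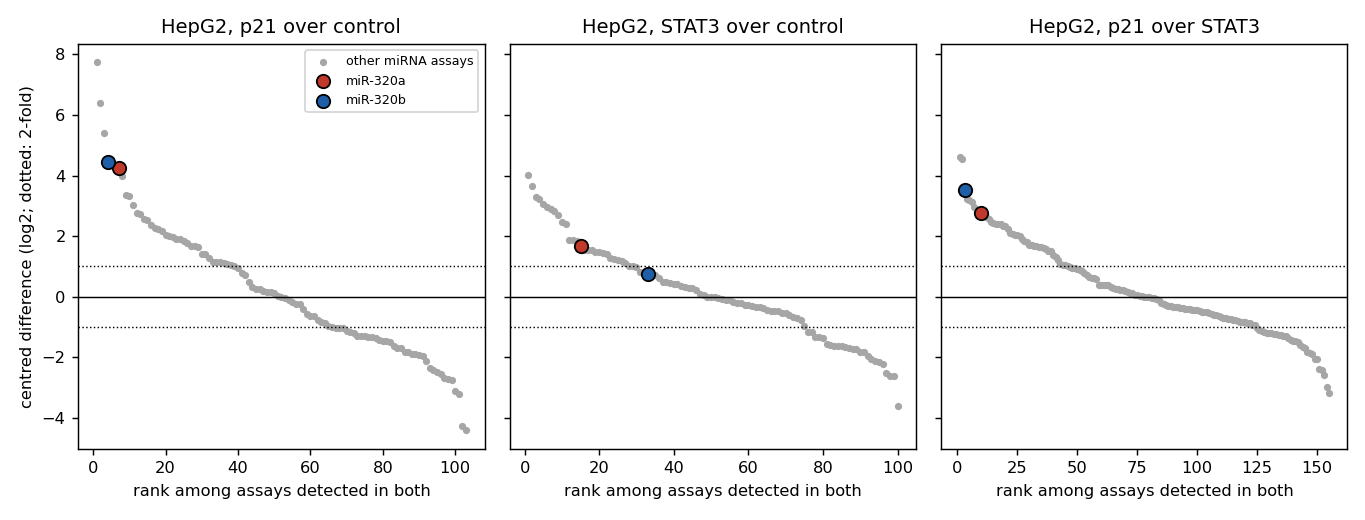
Centred difference (log2) of every miRNA assay detected in both purifications, by rank, for p21 over control, STAT3 over control and p21 over STAT3 in HepG2; coloured points are the miR-320 assays and dotted lines mark 2-fold. miR-320b and miR-320a lie at places 4 and 7 for p21 over control, 33 and 15 for STAT3 over control, and 3 and 10 for p21 over STAT3.

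Set directly against the STAT3 purification, which makes no use of the control, the p21 purification held more of both members. miR-320a came at 26.04 with the p21 probe against 29.44 with the STAT3 probe, and miR-320b at 26.07 against 29.67. Without centring the differences were 3.40 and 3.61 log2 units. Centred on the panel medians of 0.64 (102 assays) and 0.083 (53 assays), miR-320a was 2.76 higher (6.79-fold, place 10 of 155) and miR-320b 3.52 higher (11.5-fold, place 3). At a size of 2-fold 2 of 2 members were higher, where 45 of 155 assays (29%) were; the p21 purification that chose the family takes part in this contrast too.

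Around miR-320b in this ranking stood miR-296-5p (4.56) and miR-199a-5p (3.23), and around miR-320a miR-296-3p (2.87) and let-7b (2.68). Without centring, U6, SNORD38B and SNORD49A differed by 0.42, 0.92 and 0.72 on panel 1 and by -0.30, 0.51 and 0.39 on panel 2, far less than either member. The reference miRNAs did not all stay that low. On panel 1 miR-103 differed by 3.27, close to miR-320a, miR-423-5p by 2.76 and miR-191 by 1.86. On panel 2 they differed by 2.53, 1.72 and 0.33, each less than miR-320b. Every centring and limit tried for this comparison left both members at least 2-fold higher with the p21 probe, between 1.75 and 4.38 for miR-320a and between 1.89 and 4.08 for miR-320b.

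**Figure D3:**
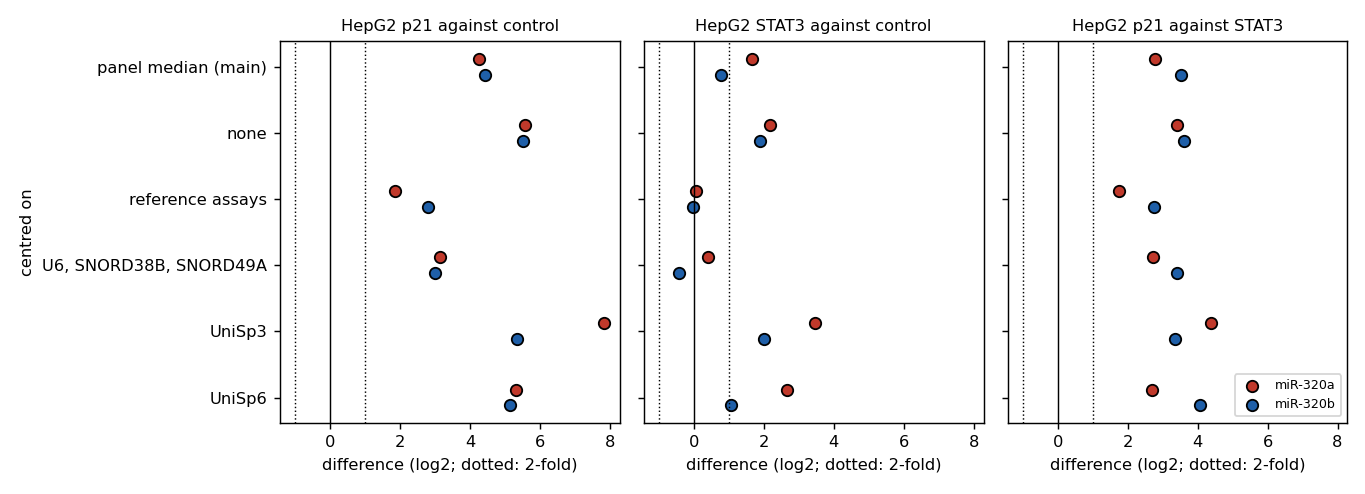
Difference (log2) of miR-320a and miR-320b for p21 against control, STAT3 against control and p21 against STAT3 in HepG2, by what each panel was centred on; each point is 1 assay, the solid line marks 0 and the dotted lines 2-fold. p21 against control stays above 2-fold throughout, from 1.84 for miR-320a on the reference assays, while STAT3 against control runs down to 0.053 for miR-320a and -0.42 for miR-320b.

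Both members were more abundant in HepG2 than in PC-3 with either shared probe. With the p21 probe miR-320a came at 26.04 in HepG2 against 30.34 in PC-3 and miR-320b at 26.07 against 32.35, uncentred differences of 4.31 and 6.28 log2 units. Among the reference assays, miR-423-5p on panel 1 was 3.53 higher in HepG2 without centring. miR-103 on panel 2 was 7.13 higher, more than miR-320b, but at 34.86 in PC-3 it was near the limit. U6, SNORD38B and SNORD49A differed by less, by -0.16, 0.58 and 1.08 on panel 1 and by 0.50, 2.18 and 2.16 on panel 2. The panel shifts were 2.50 (31 assays) and 2.30 (14 assays). After centring miR-320a was 1.80 higher in HepG2 (3.49-fold, place 13 of 45, between let-7d at 2.49 and miR-221 at 1.73) and miR-320b 3.98 higher (15.8-fold, place 4, between miR-23a at 4.09 and miR-92a at 3.76). At a size of 2-fold 2 of 2 members were higher, where 17 of 45 assays (37.8%) were.

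With the control probe both were detected in HepG2 and gave no Cq in PC-3, and they were among the 115 of 745 assays (15.4%) that passed the limit in HepG2 only. The bounds after centring were 1.81 for miR-320a (at least 3.50-fold) and 3.02 for miR-320b (at least 8.11-fold), on panel shifts of 1.59 (6 assays) and 0.41 (4 assays). The control purification of HepG2 held 125 detected miRNAs and that of PC-3 held 16. A difference in the level of the family between the cells and a difference in the yield of the purifications cannot be told apart here. Of 6 liver-enriched miRNAs (miR-122, miR-148a, miR-192, miR-194, miR-215 and miR-885-5p), used to check the HepG2 label, 0 were detected with the p21 or control probe in HepG2 and 4 with the STAT3 probe, and miR-122, the most abundant miRNA of liver, gave no Cq in any purification.

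As read, without aligning the panels, miR-320a and miR-320b were close in HepG2 and apart in PC-3. miR-320a minus miR-320b was -0.032 cycles with the p21 probe, -0.24 with the STAT3 probe and 0.030 with the control probe in HepG2, and -2.00 cycles with the p21 probe in PC-3. Since the 2 assays sit on different panels, the difference holds any offset between panels. The assays on both panels differed, panel 1 minus panel 2, by 0.11 to 0.60 cycles with the p21 probe (6 assays), 0.46 to 1.64 with the STAT3 probe (6) and 0.23 to 2.44 with the control probe (4) in HepG2. In PC-3 with the p21 probe, U6, SNORD38B and SNORD49A differed by -0.20, -1.004 and -0.94 cycles, while the UniSp6 spike-in differed by 0.37. Less the mean of the 3 RNAs, miR-320a minus miR-320b was -0.43 with the p21 probe, -1.12 with the STAT3 probe and -0.29 with the control probe in HepG2, and -1.29 with the p21 probe in PC-3. The gap in PC-3 was thus smaller once the panels were aligned on these RNAs, and was then close to that of the STAT3 purification. The same kind of assay could differ as much by itself: miR-103 read 33.50 on panel 1 and 31.06 on panel 2 in the HepG2 control purification. With the p21 probe in PC-3, miR-423-5p read 32.24 on panel 1 and 35.77 on panel 2, where it was past the limit. miR-191 read 35.86 and 37.33 there, past the limit on both panels. The gap of the pair in PC-3 cannot be told apart from a difference between panels.

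**Figure D4:**
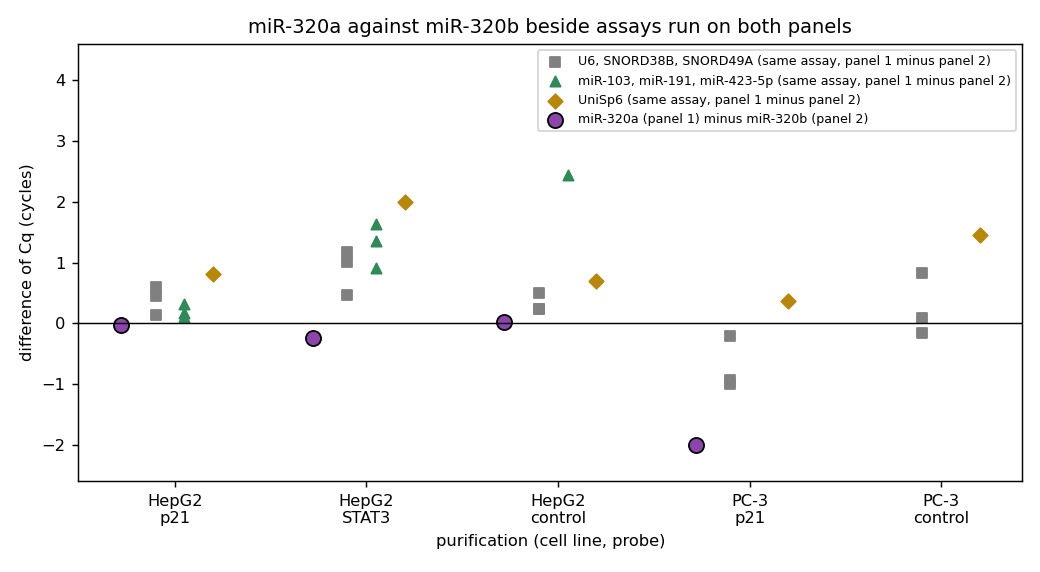
miR-320a (panel 1) minus miR-320b (panel 2) in cycles for each purification, beside the panel 1 minus panel 2 difference of assays run on both panels and detected on both; each point is 1 assay. The 3 HepG2 purifications sit near 0 for the miR-320 pair, and the PC-3 p21 purification sits at -2.00, where U6, SNORD38B and SNORD49A are also below 0.

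The miRNAs whose profile over the 5 purifications was most like that of the family came from several unrelated families. Likeness was the root mean square difference of the 5 Cq values after taking off each assay's mean, with undetected wells at 35, over the 187 assays detected in at least 2 purifications. Assays of a panel share plate and RNA input, so part of any likeness is common to all of them. Nearest to miR-320a were let-7b (0.49 cycles), miR-320b (0.78), miR-92b (0.85), let-7e (0.96) and miR-423-5p on panel 1 (1.01), against a median distance of 2.39. Nearest to miR-320b were miR-320a (0.78), miR-106a (0.87), miR-103 on panel 1 (0.88), miR-24 (0.89) and miR-193b (0.93), against a median of 2.37. Apart from the members themselves, the lists had 0 assays in common.

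let-7b, a member of the growth-restraining let-7 family, gave 25.04 with the p21 probe, 28.36 with the STAT3 probe and 30.32 with the control probe in HepG2, and 28.99 with the p21 probe and no Cq with the control probe in PC-3. It thus crossed threshold before miR-320a in each of these 4 purifications. miR-92b gave 25.45, 28.66 and 33.16 with the same 3 probes in HepG2 and 30.88 with the p21 probe in PC-3. On the 3 HepG2 purifications alone, miR-320a was the nearest of all assays to miR-320b, at 0.11 cycles, and miR-320b was at place 2 for miR-320a, after miR-103. The sequences of 3 of these neighbours, printed to show that they do not share the miR-320b seed, are as follows, with bases 2 to 8 in capitals.
let-7b: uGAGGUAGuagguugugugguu
miR-92b: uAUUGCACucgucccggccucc
miR-106a: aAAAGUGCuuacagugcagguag
The longest run in common with miR-320b was 5 bases for let-7b, 3 for miR-92b and 5 for miR-106a, the last at the first 5 bases.

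Few other miRNAs made without the full Drosha and Dicer route were detected in both purifications compared, so the list is described by its members. The list held miR-484, made like miR-320a as a short capped hairpin, the reported mirtrons (hairpins released by splicing) miR-877, miR-1224-3p, miR-1227, miR-1236, miR-1237 and miR-1238 with miR-877*, and miR-451, which is matured by Argonaute in place of Dicer. Of these 9 assays, 3 passed the limit for both p21 and control in HepG2, of which 2 were at least 2-fold higher, beside 39 of 103 assays (37.9%), and 1 lower with p21 (median 1.15, against 0 over all 103 assays by construction).

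miR-484 was the closest to miR-320a in its making but not in its pattern. It gave 30.44 with the p21 probe, 30.73 with the STAT3 probe and 33.91 with the control probe in HepG2, and passed the limit in neither PC-3 purification, with 37.39 for p21 and no Cq for control.
miR-484: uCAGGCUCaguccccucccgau
After centring miR-484 was 2.16 higher for p21 over control, 2.69 higher for STAT3 over control and at -0.35 for p21 over STAT3, where the miR-320 members were at 2.76 and 3.52. The mirtron miR-1224-3p was 1.15 higher for p21 over control, and miR-877 was at 31.84 for p21 and 32.71 for STAT3, with no Cq for control. miR-451, a red blood cell miRNA, was lower, at -1.91 for p21 and -1.73 for STAT3 over control. For STAT3 over control 2 of the 9 were detected with both probes, 1 higher, beside 29 of 100 assays (29%), and 1 lower (median 0.48), and miR-877, miR-1236 and miR-1237 were detected with the STAT3 probe only. For p21 over STAT3, 3 were detected with both and 0 were at least 2-fold higher, beside 45 of 155 assays (29%), or lower. In HepG2, 2 more members had a Cq under 35 for p21 but over 35 for STAT3, which kept them out of this count. Of these, miR-1224-3p was at 31.99 for p21 and 35.38 for STAT3, a wide gap. The other, miR-1227, was at 34.96 and 35.09, close to the limit in both. The count also left out miR-1236 and miR-1237, which went the other way, passing the limit for STAT3 but not for p21. miR-1236 was at 36.47 for p21 and 33.77 for STAT3, and miR-1237 at 35.96 and 33.93.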

How the data were processed

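The authors deposited a table of unnormalised Cq values, 1 well per assay, from Exiqon SYBR Green panels per the labels' protocols. They also deposited fold values against a housekeeping gene, per the file headers as 2 to the power of minus ΔΔCt; the header calls these ratios log fold changes, but none is negative, and for both members they equal the values centred on the UniSp6 spike-in. No source used here gives the instrument, threshold or software. Panel 1 held 375 miRNA assays and panel 2 held 370.

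A difference is the Cq of the second purification minus that of the first, centred per panel on the median of miRNA assays detected with both (Cq at most 35). Where only the first was detected, the second was placed at 35 and the result is a lower bound. The calculation was tested on simulated data with a known change. These held only assays detected in both purifications, with less noise than the SD of a Cq given below, so the lower bounds were not tested. Values were computed with Python 3.11.15 and pandas 2.3.3. An SD of 0.63 cycles for a Cq came from 22 pairs of wells on both panels.

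The members and lists were chosen with earlier results of these data known. The genes named were the family, the 5 nearest profiles of each member, detected members of the non-canonical list, neighbours in rank, reference assays and miR-92a. Alternatives were 5 other centrings, limits of Cq 37 and 32, undetected assays kept at the limit, and the authors' folds. Seed matches in the probed messages were not examined here.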

Additional observations from a re-analysis of the deposited data

How the results depend on the processing

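No paired analysis was possible because each condition was purified 1 time and the panels hold different assays. In PC-3 the control gave no Cq for either member, so depth allows only bounds there, and these moved with the centring too. UniSp3 is an uneven centre: its 3 wells on panel 1 of the HepG2 p21 purification ran from 21.60 to 24.91. Of 101 recomputed values of the family, 46 moved by less than the technical SD, 53 by more, and 2 changed sign; 3 lower bounds that fell under 0 at Cq 32 are among the 53, because such a bound gives no direction. The causes were not tested.

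For p21 over control in HepG2, miR-320a was 5.56 without centring, 1.84 on the reference assays, 3.13 on U6, SNORD38B and SNORD49A, 7.84 on UniSp3, 5.33 on UniSp6 and in the authors' folds, and 3.20 at Cq 32; miR-320b was 5.50, 2.79, 2.99, 5.34, 5.14 (both of the last) and 2.18 in the same order. For p21 over control in PC-3, the bound of miR-320a was 4.66 without centring, 4.26 on UniSp3, 4.16 on UniSp6 and in the authors' folds, 4.61 at Cq 37 and 3.58 when undetected assays were kept, and at Cq 32 it was -0.87, which gives no direction; miR-320b was 1.49 on the reference assays and on the 3 small RNAs (the same wells here), 4.82 at Cq 37 and had no value at Cq 32. For STAT3 over control, miR-320a was 0.053 on the reference assays, 0.41 on the 3 small RNAs, 3.46 on UniSp3, 2.65 on UniSp6 and in the authors' folds and 0.25 at Cq 32; miR-320b was 1.89 without centring and 1.99 on UniSp3, and changed sign to -0.040 on the reference assays and -0.42 on the 3 small RNAs. For p21 over STAT3, miR-320a was 1.75 on the reference assays and 4.38 on UniSp3, and miR-320b 2.74 on the reference assays and 1.89 at Cq 32.

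For HepG2 over PC-3 with the p21 probe, miR-320a was 4.31 without centring, 3.05 on the reference assays, 3.81 on the 3 small RNAs, 5.36 on UniSp3 and 3.24 on UniSp6; miR-320b was 6.28 without centring, 5.34 on UniSp3, 4.77 on UniSp6, 5.21 with undetected assays at the limit and at least 2.28 at Cq 32. With the control probe the bound of miR-320a was 3.40 without centring, 3.20 on the reference assays and on the 3 small RNAs, and 3.29 at Cq 37, and that of miR-320b 5.25 at Cq 37; at Cq 32 they were -1.92 and -1.91, with no direction. Aligning the panels on the 3 small RNAs, an alternative chosen after seeing the data, moved no difference between miR-320a and miR-320b by more than the spread of 0.90 cycles between panels. That spread was computed in part from the same 3 RNAs, so nothing is read from this. With the STAT3 probe in HepG2 the difference went from -0.24 to -1.12. On HepG2 alone 3 of the 5 nearest profiles of miR-320a and 2 of 5 of miR-320b were the same assays. The non-canonical list at Cq 37 had 1 member higher for p21 over control in PC-3, 1 for p21 over STAT3 and 2 for HepG2 over PC-3 with p21, where at Cq 35 it had 0 in each. At Cq 35 the first and last of these comparisons had 0 members detected in both purifications, so no difference could be measured. For HepG2 over PC-3 with p21, 5 of the 9 members were detected in HepG2 only.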
